A study of Mus musculus with 2 samples.

Results

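Retinoid synthesis and transport genes were followed in single cells sorted from adult mouse brain. The 8 genes were Rdh10, Aldh1a1, Aldh1a2, Aldh1a3, Cyp26b1, Crabp2, Rbp4 and Stra6. They were found by symbol among the 26033 genes listed in both count matrices, and all 8 had a row. In GRCm38, Rdh10 lies at chr1:16105774-16133734, Aldh1a1 at chr19:20492715-20643465, Aldh1a2 at chr9:71215789-71296243, Aldh1a3 at chr7:66390890-66427517, Cyp26b1 at chr6:84571414-84593908, Crabp2 at chr3:87948666-87953376, Rbp4 at chr19:38116629-38125281 and Stra6 at chr9:58063788-58153996 (GENCODE M21). Mrc1Cre:Csf1rfl/fl animals gave the mutant library. In them a Cre recombinase under Mrc1, the mannose receptor gene of border-associated macrophages (BAMs), meets floxed alleles of Csf1r, the receptor of colony-stimulating factor 1. Csf1rfl/fl animals gave the control library; they carry the same floxed alleles and, by genotype, no Cre. Each genotype had 1 library, and the labels give no sex, no animal number, no age beyond adult and no pooling. The sort took mural cells and fibroblasts by CD13 or CD140a, endothelial cells by CD31, astrocytes by ACSA-2, and microglia and BAMs by CD11b with F4/80. With 1 library per genotype no difference below has a replicate check, and every interval covers counting error only.

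Retinol circulates bound to the protein of Rbp4, with transthyretin (Ttr) as the partner that keeps the complex in the blood, and enters cells through the receptor of Stra6. Retinol dehydrogenases such as the enzyme of Rdh10 oxidise it to retinaldehyde, and the retinaldehyde dehydrogenases of Aldh1a1, Aldh1a2 and Aldh1a3 oxidise that to retinoic acid. Crabp2 codes for a cellular protein that carries retinoic acid toward its nuclear receptors, and Cyp26b1 for a hydroxylase that clears it. In the developing head, the meninges are a known source of retinoic acid for the brain.

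The mutant library held 8735 barcodes and 82806348 unique molecular identifiers (UMIs, 1 per captured transcript), against 8739 barcodes and 85716531 UMIs in the control library, with medians of 8236 and 7998 UMIs per barcode. After filtering, 6130 mutant and 5614 control cells were kept. They formed 24 clusters, named by marker genes in classes written as "-like", since no deposited annotation was used. The filters kept 483 mutant and 186 control fibroblast-like cells, 242 mutant and 669 control astrocyte-like cells, and 1072 mutant and 634 control choroid plexus epithelium-like cells. Csf1r itself stood at 1246 CPM (counts per 1000000 UMIs) in mutant and 1501 CPM in control BAM-like cells, of which there were 143 in the mutant and 349 in the control library. The Y-linked gene Ddx3y stood at 21.6 CPM over the mutant and 10.4 CPM over the control library; its part in the differences below was not tested.

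Before the levels, the stretches upstream of both dehydrogenase genes that carried the results are shown, because Aldh1a1 was highest in astrocyte-like cells and Aldh1a2 was found almost entirely in fibroblast-like cells. Each runs from base 250 to base 11 before the RefSeq start site on the plus strand of GRCm38.p6, and capitals mark CCAAT and ATGCAAA. The Aldh1a1 start site lies inside the gene interval given above, whose first transcript begins farther upstream.

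Aldh1a1, chr19:20601718-20601957: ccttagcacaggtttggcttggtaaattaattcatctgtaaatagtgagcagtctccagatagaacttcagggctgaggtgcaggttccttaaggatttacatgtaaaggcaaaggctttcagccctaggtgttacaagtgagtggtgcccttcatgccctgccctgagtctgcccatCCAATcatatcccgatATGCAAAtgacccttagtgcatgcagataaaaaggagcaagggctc

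Aldh1a2, chr9:71215539-71215778: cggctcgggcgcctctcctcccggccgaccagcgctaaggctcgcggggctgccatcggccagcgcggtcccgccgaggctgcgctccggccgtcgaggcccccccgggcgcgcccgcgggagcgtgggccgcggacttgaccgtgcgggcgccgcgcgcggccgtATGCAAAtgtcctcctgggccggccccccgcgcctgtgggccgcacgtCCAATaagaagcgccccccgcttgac

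The Aldh1a1 stretch had a GC content of 46.7% and the Aldh1a2 stretch 78.8%, against a median of 52.1% over 32534 such windows. CCAAT began 72 bases before the start site of Aldh1a1 and 36 bases before that of Aldh1a2. ATGCAAA, looked for after both stretches had been read, began 56 and 84 bases before them. A second RefSeq start of Aldh1a1, whose window lies at chr19:20492333-20492572 and has a GC content of 42.5%, had no match to any motif searched. Searched on both strands, CCAAT was in 33% of the windows and ATGCAAA in 4.02%. The retinoic acid receptor half-sites AGGTCA and AGTTCA, present in 13.5% and 11.4% of the windows, and the motifs TATAAA (12%) and GGGCGG (31.5%) had no match in either stretch. RefSeq windows were matched for 5 of the 8 members. The members Aldh1a3, Crabp2 and Rdh10 are named only.

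The 8 genes divided among cell classes. Crabp2 and Rbp4 were found in fibroblast-like cells, which held 97.9% of the Crabp2 UMIs of all kept mutant cells and 92.5% of those of control cells, and 97.4% and 72.7% of the Rbp4 UMIs in the mutant and control libraries. Aldh1a2 was found in the same class, with 95.2% of its mutant UMIs and 89.8% of its control UMIs. Aldh1a1 and Cyp26b1 lay mainly in astrocyte-like cells, with 71.6% of mutant and 90.2% of control UMIs for Aldh1a1, and 83.0% of mutant and 85.5% of control UMIs for Cyp26b1. Stra6 lay mainly in choroid plexus epithelium-like cells, with 73.2% of mutant and 75.6% of control UMIs. Rdh10 was spread over many classes, and Aldh1a3 had 32 mutant and 13 control UMIs in all. These shares follow the number of cells sorted as well as the level per cell.

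**Figure D1:**
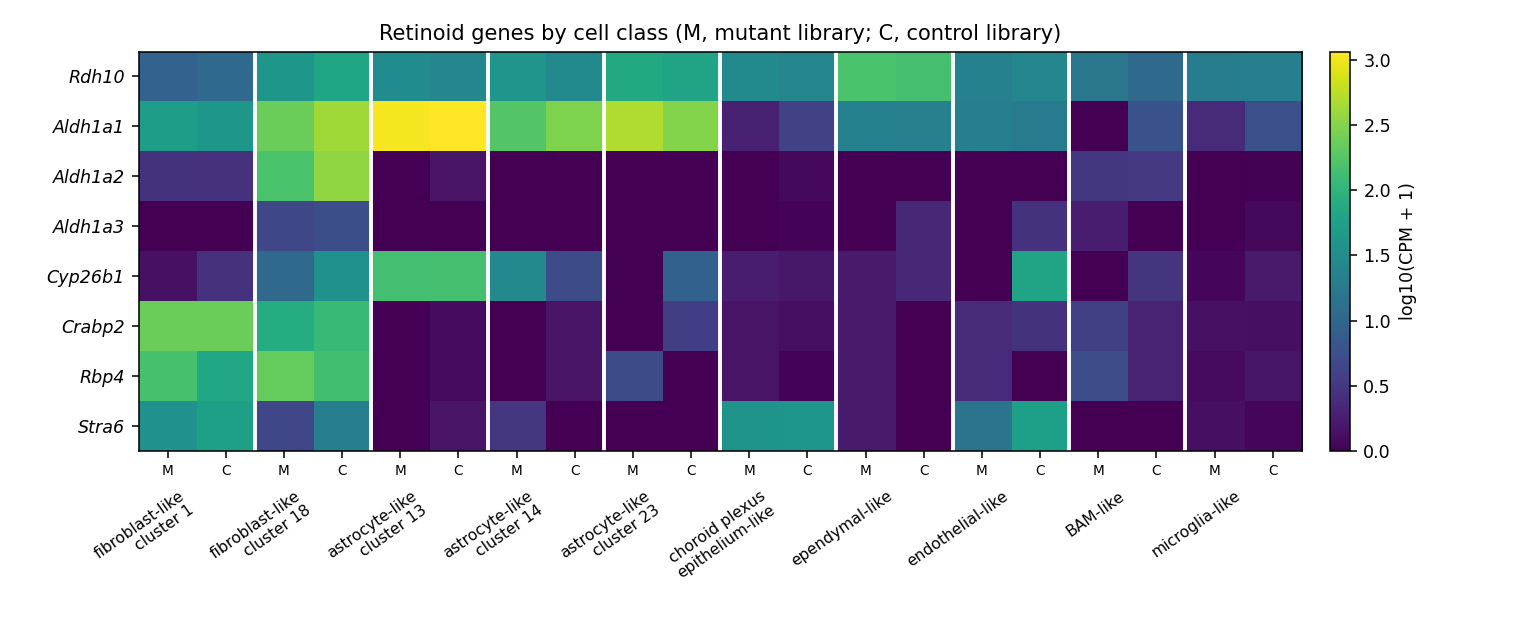
Level of each of the 8 genes as log10(CPM + 1), with mutant (M) left of control (C) in each pair of columns, in the fibroblast-like and astrocyte-like clusters and in 5 other classes. Among the groups shown, Crabp2 and Rbp4 are brightest in the fibroblast-like clusters, Aldh1a2 in cluster 18, and Cyp26b1 is brightest in astrocyte-like cluster 13.

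Fibroblast-like cells fell into 2 clusters that differed in their retinoid genes. Cluster 1 (422 mutant and 137 control cells) was led by Slc47a1, Ccn3 and Mgp. It counted 5 of 14 fibroblast markers and also 3 arachnoid barrier markers, a class exempted from competing with fibroblasts in the naming. Its Col1a1, a collagen gene, stood at 787 CPM in mutant and 992 CPM in control cells. Cluster 18 (61 mutant and 49 control cells) was led by Coch, Slc6a13 and Lama1 and counted 13 of 14 fibroblast markers. Slc6a13, a transporter gene of meningeal fibroblasts, had 1 mutant and 0 control UMIs in the whole of cluster 1.

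In cluster 1, the carrier gene Crabp2 was the leading member. It had 1277 UMIs in mutant cells (235 CPM, interval 222 to 248) and 412 UMIs in control cells (235 CPM, 213 to 259), a ratio of 0.9997 (0.894 to 1.12). At least 1 Crabp2 UMI was seen in 280 of 422 mutant cells (66.4%, exact interval 61.6 to 70.9) and 87 of 137 control cells (63.5%, 54.9 to 71.6). Among microglia-like cells, where Crabp2 is not known to be expressed, the share with a UMI was 0.353% in the mutant and 0.323% in the control library, at median depths of 8625 and 8739 UMIs against 11802 in mutant and 11553 in control cells of cluster 1. The level and the share of Crabp2 were thus close in both libraries, and far above those of microglia-like cells.

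The retinol carrier gene Rbp4 was carried by few cells of cluster 1. It was seen in 60 of 422 mutant cells and 13 of 137 control cells, with a median of 3 UMIs among those cells in each library. The 16 mutant cells with at least 10 UMIs held 86.6% of the mutant UMIs, and the 4 such control cells held 77.3% of the control UMIs. Its level was 147 CPM (796 UMIs) in mutant and 68.0 CPM (119 UMIs) in control cells, a ratio of 2.16 (1.78 to 2.64). This ratio turned round when the cap of 10% mitochondrial UMIs per cell was lifted. Cluster 1 then gained 172 mutant and 92 control cells. The added cells held Rbp4 at 173 CPM in the mutant and 502 CPM in the control library. The ratio became 0.686, with 152 CPM in mutant and 222 CPM in control cells. The turn also rests on few cells: the added UMIs lay in 16 mutant and 19 control cells. Of these, 6 mutant and 8 control cells had at least 10 UMIs. The higher level in the mutant library therefore holds for cells under the cap alone. Leaving out the cell with most Rbp4 UMIs in each library, an alternative chosen after the values were seen, gave 2.67. Choroid plexus markers in cluster 1 summed to 3562 CPM in mutant and 1718 CPM in control cells with none of the 12 at 0, and Ddx3y stood at 23.9 CPM in mutant and 13.7 CPM in control cells; their part in the Rbp4 ratio was not tested. Rbp4 stood at 0.463 CPM in mutant and 0.0854 CPM in control choroid plexus epithelium-like cells.

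**Figure D2:**
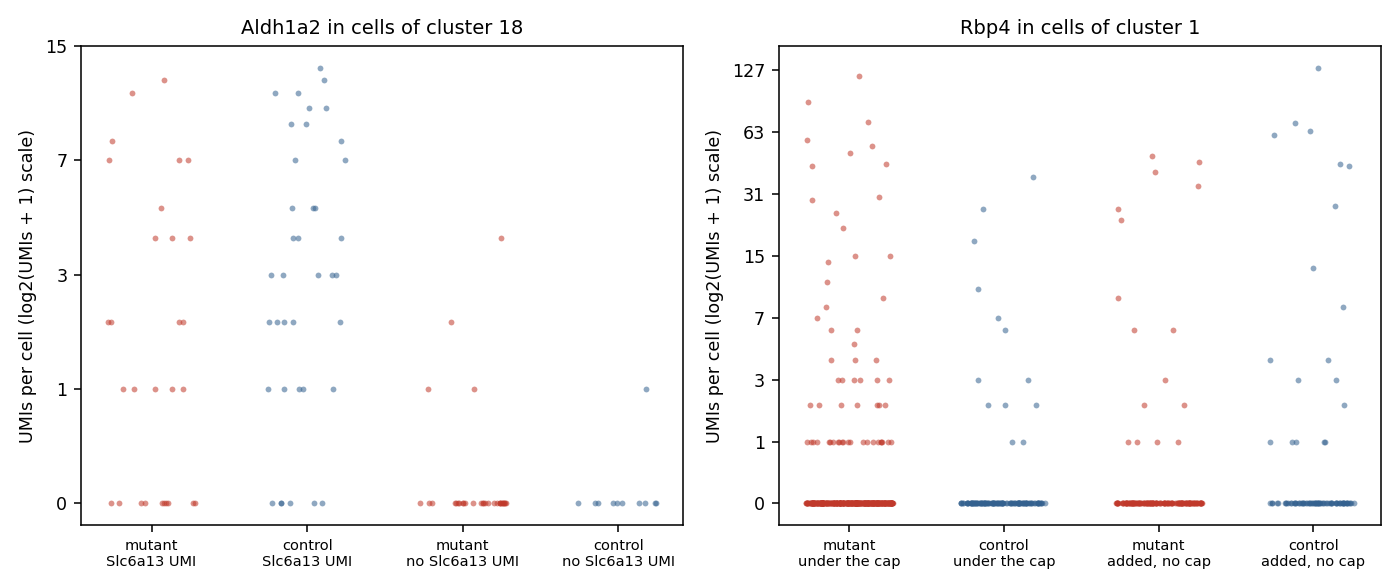
UMIs per cell on a log2(UMIs + 1) scale, each point 1 cell, mutant in red left of control in blue. The left panel shows Aldh1a2 in cluster 18, where cells with a Slc6a13 UMI hold nearly all of it. The right panel shows Rbp4 in cluster 1. Cells added without the mitochondrial cap include 6 mutant and 8 control cells with at least 10 UMIs. Under the cap there are 16 mutant and 4 control cells of that kind.

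The receptor gene Stra6 went the other way in cluster 1, at 34.8 CPM (189 UMIs) in mutant and 54.8 CPM (96 UMIs) in control cells, a ratio of 0.635 (0.494 to 0.821). Stra6 was detected in 15.9% of mutant and 21.2% of control cells. The dehydrogenase gene Aldh1a1 stood at 51.9 CPM in mutant and 41.1 CPM in control cells (ratio 1.26, 0.972 to 1.66), and Rdh10 at 8.29 and 10.3 CPM in mutant and control cells (0.806, 0.458 to 1.48). With equal weight for each cell the Rdh10 ratio was 0.484, and without doublet removal 0.623, both past 1.5-fold lower. Aldh1a2 had 10 mutant and 3 control UMIs, Cyp26b1 had 2 and 3, and Aldh1a3 had none in either library. Of the 5 members with at least 50 UMIs over both libraries, Rbp4 was past 1.5-fold higher in mutant cells, Stra6 was past it lower, and 3 were neither. Among all genes measured in this cluster, 8.43% were past 1.5-fold in either direction, 4.54% higher and 3.89% lower. The median log2 ratio of the 5 members was -0.00158, beside 0.000615 for all 10072 genes. Within cluster 1, Stra6 was seen in 58 of 280 mutant and 25 of 87 control cells that had a Crabp2 UMI, and in 9 of 142 mutant and 4 of 50 control cells that had none. The cells with Crabp2 were also deeper, with a median of 13029 UMIs in mutant and 13050 in control cells, against 8578 in mutant and 8723 in control cells without it.

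Cluster 18 held Aldh1a2, the dehydrogenase gene of the embryonic meninges. In the whole cluster it stood at 155 CPM (90 UMIs, interval 124.6 to 190.5) in mutant cells and 362 CPM (165 UMIs, 309 to 422) in control cells, a ratio of 0.428 (0.327 to 0.557). The next level in any other cluster was 2.28 CPM in mutant and 8.21 CPM in control cells of an unnamed cluster led by Ear2 and H2-Eb1. The cluster was a mixture, however. Microglial markers summed to 9887 CPM in its mutant and 5308 CPM in its control cells with none of the 10 at 0, choroid plexus markers to 2183 and 13540 CPM and pericyte markers to 1119 and 4380 CPM in mutant and control cells, and the osteoblast gene Bglap had 4061 UMIs in mutant and 0 in control cells.

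When only cells with a Slc6a13 UMI were taken, a gate chosen after the values were seen, 29 mutant and 38 control cells were left. They held 82 of the 90 mutant and 164 of the 165 control Aldh1a2 UMIs of the cluster. In them Aldh1a2 stood at 332 CPM (264 to 412) in mutant and 465 CPM (396 to 541) in control cells, a ratio of 0.715 (0.542 to 0.938). Detection was in 19 of the 29 mutant cells and 32 of the 38 control cells. The whole-cluster ratio thus moved more than 1.5-fold toward 1 once cells without Slc6a13 were set aside, and 32 mutant against 11 control cells were of that kind. Microglial markers still summed to 4976 CPM in mutant and 3716 CPM in control cells of the gate, choroid plexus markers to 2298 and 16952 CPM, and pericyte markers to 2281 and 5611 CPM in mutant and control cells; their part in the ratio was not tested.

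The other members measured in cluster 18 had ratios closer to 1 under the gate. Aldh1a1 stood at 236 CPM in mutant and 419 CPM in control cells of the whole cluster (ratio 0.563, 0.449 to 0.705), and at 381 and 459 CPM in mutant and control cells with Slc6a13 (0.830, 0.637 to 1.08). Crabp2 stood at 79.2 CPM in mutant and 116 CPM in control cells of the cluster (0.681, 0.449 to 1.03), and at 158 and 147 CPM in mutant and control cells with Slc6a13 (1.07, 0.690 to 1.66). Rbp4 stood at 219 CPM in mutant and 136 CPM in control cells of the cluster (1.61, 1.18 to 2.21), with 31.5% of its mutant and 43.6% of its control UMIs in a single cell. In cells with Slc6a13 the Rbp4 ratio was 1.29 (0.884 to 1.89), while cells without it held 71 mutant UMIs, more than the 56 inside the gate, and 0 control UMIs. Rdh10 had 24 mutant and 29 control UMIs in the cluster, a ratio of 0.649 (0.362 to 1.16), and stood at 72.9 CPM in mutant and 65.1 CPM in control cells with Slc6a13. Cyp26b1 had 6 mutant and 16 control UMIs in the cluster, and Stra6 had 2 and 9. Of the 5 members measured in the whole cluster, 1 was past 1.5-fold higher in mutant cells, 3 were past it lower and 1 was neither, where 19.1% of all genes measured were past it, 9.52% higher and 9.57% lower. Of the 4 measured in cells with Slc6a13, 0 were past it, where 28.5% of all genes measured there were.

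Aldh1a1 and Aldh1a2 were often seen in the same cells of cluster 18. Aldh1a1 was seen in 20 of 23 mutant and 25 of 33 control cells that had an Aldh1a2 UMI, against 16 of 38 mutant and 5 of 16 control cells that had none. Median depths were 8408 UMIs in mutant and 8333 in control cells with Aldh1a2, and 9732 in mutant and 8210 in control cells without it. Of the cells without Aldh1a2, 28 of 38 mutant and 10 of 16 control cells also lacked Slc6a13. The part of the mixture of the cluster in this contrast was not tested. Among cells with Slc6a13, Aldh1a1 was seen in 19 of 19 mutant and 24 of 32 control cells that had Aldh1a2, and in 5 of 10 mutant and 3 of 6 control cells that had none.

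Taken over both fibroblast-like clusters at once, Aldh1a2 stood at 16.6 CPM in mutant and 76.1 CPM in control cells, a ratio of 0.219 (0.169 to 0.282), and 3 of 6 measured members were past 1.5-fold lower, 1 was past it higher and 2 were neither. Among all genes measured in the class, 10.2% were past 1.5-fold, 4.1% higher and 6.14% lower. The pooled values follow the mix of clusters, since cluster 18 supplied 61 of 483 mutant but 49 of 186 control fibroblast-like cells, and the values within each cluster above are the ones to read.

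**Figure D3:**
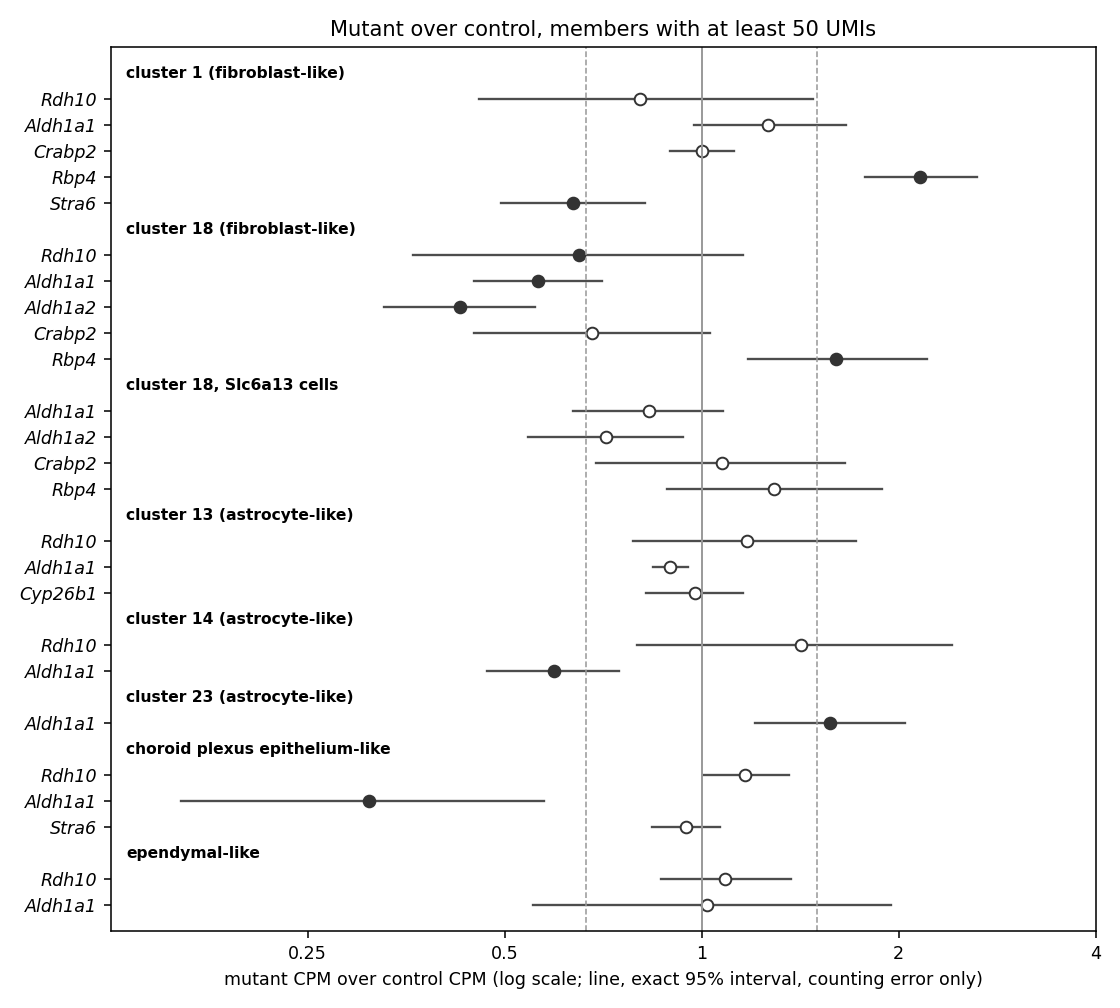
Mutant CPM over control CPM on a log axis for each member with at least 50 UMIs over both libraries, with exact 95% intervals for counting error. Filled points are past 1.5-fold (dashed lines), among them Rbp4 at 2.16 in cluster 1 and Aldh1a2 at 0.428 in the whole of cluster 18. Open points are not past it, among them Aldh1a2 at 0.715 in the Slc6a13 cells of cluster 18.

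Astrocyte-like cells held most of the Aldh1a1 and Cyp26b1, and they held them unequally. In cluster 13 (161 mutant and 431 control cells, led by Kcnd2 and Agt) Aldh1a1 reached 1043 CPM (1308 UMIs, interval 987 to 1101) in mutant and 1164 CPM (4953 UMIs, 1132 to 1197) in control cells, a ratio of 0.896 (0.842 to 0.953). It was seen in 85.7% of mutant and 88.4% of control cells, against 1.34% of mutant and 4.37% of control microglia-like cells. Erythroid markers summed to 163.5 CPM in mutant and 4547 CPM in control cells of the cluster, and their part in the ratio was not tested. Its microglial level was 0.1322% of the cluster 13 level in the mutant and 0.390% in the control library, below the medians of 0.290% and 1.14% for astrocyte markers in the mutant and control libraries. In cluster 14 (led by Hapln1, Chrdl1 and Lhx2) Aldh1a1 was at 175 CPM in mutant and 293 CPM in control cells, a ratio of 0.596 (0.470 to 0.747). In cluster 23 (led by Tnc and Kcnj3) it was at 499 CPM in mutant and 318 CPM in control cells, with 119 UMIs in each and a ratio of 1.57 (1.21 to 2.04). Other marker sums also differed: in cluster 14, erythroid markers summed to 652 CPM in mutant and 94.2 CPM in control cells, and pituitary or neuroendocrine markers to 4.07 and 484 CPM in mutant and control cells. In cluster 23, BAM markers summed to 839 CPM in mutant and 16.0 CPM in control cells, and choroid plexus markers to 2348 and 12362 CPM in mutant and control cells. Their part in these ratios was not tested. Within each library the 3 clusters had intervals that lay apart, except clusters 23 and 14 of the control library. Aldh1a1 and Cyp26b1 were themselves among the 10 genes with the highest fold in cluster 13, although neither was used to form the clusters.

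Among the astrocyte-like clusters Cyp26b1 was highest in cluster 13, at 141 CPM (177 UMIs) in mutant and 144 CPM (614 UMIs) in control cells, a ratio of 0.978 (0.823 to 1.16). In cluster 14 it stood at 26.42 CPM (13 UMIs) in mutant and 4.157 CPM (9 UMIs) in control cells. That is a ratio of 6.355 (2.513 to 16.85), on fewer than the 50 UMIs set for a measured gene. In cluster 23 it had 0 UMIs in mutant and 3 in control cells. It was seen in 48 of 161 mutant and 168 of 431 control cells of cluster 13. All 48 mutant and 163 of the 168 control cells also had an Aldh1a1 UMI. Of cells without Aldh1a1, 0 of 23 mutant (exact upper limit 14.8%) and 5 of 50 control cells had Cyp26b1, but those cells were shallower, at medians of 5081 UMIs in mutant and 5700 UMIs in control cells, against 7158 in mutant and 8202 in control cells with Aldh1a1. Thinned to 2000 UMIs per cell, the shares of cluster 13 cells with Cyp26b1 were 20% in the mutant and 18.6% in the control library. Rdh10 stood at 29.5 CPM in mutant and 25.1 CPM in control cells of the cluster, a ratio of 1.17 (0.785 to 1.72).

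None of the 3 members measured in cluster 13 was past 1.5-fold, where 8.68% of all genes were. In cluster 14, where 15.1% of genes were past it and 7.71% were so lower, Aldh1a1 was past it lower and Rdh10 was not. In cluster 23, where 20.6% were past it and 10.8% were so higher, Aldh1a1 was the single measured member and was past it higher. Over the whole astrocyte-like class, Aldh1a1 stood at 762 CPM in mutant and 840 CPM in control cells (0.908, 0.857 to 0.961), and none of 3 measured members was past 1.5-fold, where 8.49% of genes were. The mitochondrial cap mattered for cell numbers here: without it the class had 270 mutant and 1224 control cells, and its Aldh1a1 ratio in cluster 13 was 0.939. That ratio is for the best-matching cluster, of 166 mutant and 817 control cells. A further cluster led by Kcnd2, with Aldh1a1 among its 10 leading genes, held 97 mutant and 414 control cells. It was unnamed, and its cells are in neither the class counts nor the ratio. Barcodes left out by all filters held 1153 Aldh1a1 UMIs in the mutant and 9000 in the control library.

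**Figure D4:**
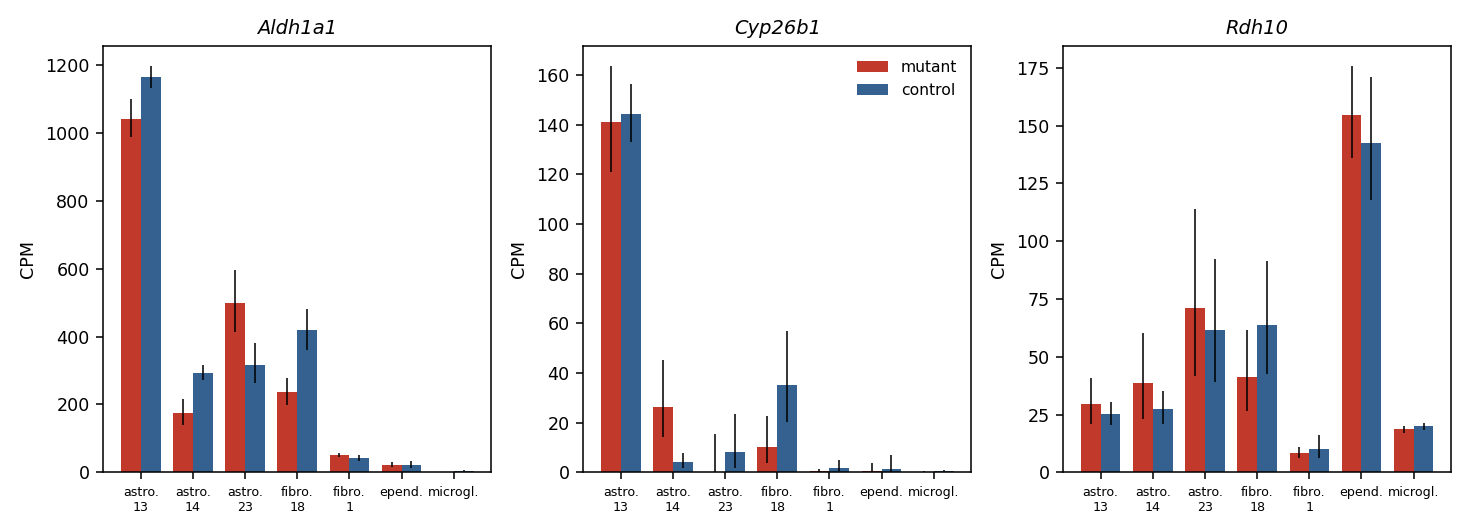
CPM of Aldh1a1, Cyp26b1 and Rdh10 with exact Poisson 95% intervals, mutant bars left of control bars, in the astrocyte-like (astro.), fibroblast-like (fibro.), ependymal-like (epend.) and microglia-like (microgl.) groups. Aldh1a1 and Cyp26b1 are highest in astrocyte-like cluster 13 and Rdh10 is highest in ependymal-like cells, in both libraries.

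Choroid plexus epithelium-like cells held the receptor gene Stra6 at 38.2 CPM (660 UMIs) in mutant and 40.3 CPM (472 UMIs) in control cells, a ratio of 0.947 (0.841 to 1.07). It was seen in 40.6% of mutant and 46.1% of control cells, at median depths of 14674 UMIs in mutant and 17068 UMIs in control cells. Thinned to 2000 UMIs per cell, the shares were 8.06% in mutant and 6.73% in control cells, so no order is read from them. Stra6 was seen in 0.318% of mutant and 0.108% of control microglia-like cells. Rdh10 stood at 27.7 CPM in mutant and 23.7 CPM in control cells (1.17, 1.01 to 1.36). Aldh1a1 was at 0.925 CPM in mutant and 2.99 CPM in control cells, levels below those of microglia-like cells (1.38 CPM in the mutant and 4.54 CPM in the control library), and is read as background. Of the 3 members measured, Aldh1a1 was past 1.5-fold lower and 2 were neither, where 5.11% of all genes were past it and 2.8% were so lower. In the smaller choroid plexus cluster 0 (90 mutant and 41 control cells, led by Gmnc and Htr2c), Rdh10 was at 37.2 CPM in mutant and 20.8 CPM in control cells, a ratio of 1.79 (1.15 to 2.88), and Stra6 at a ratio of 1.14 (0.803 to 1.64); 7.86% of genes there were past 1.5-fold, 4.77% higher. In the larger cluster 4 (982 mutant and 593 control cells) the Rdh10 ratio was 1.09 (0.924 to 1.28), Aldh1a1 was past 1.5-fold lower at its background level, and 5.81% of genes were past it, 4.08% lower.

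The dehydrogenase gene Rdh10 was highest in ependymal-like cells, the ciliated lining of the ventricles, at 155 CPM (240 UMIs, interval 136 to 176) in mutant and 143 CPM (116 UMIs, 118 to 171) in control cells, a ratio of 1.09 (0.867 to 1.37). Rdh10 was detected in 69 of 87 mutant and 38 of 47 control cells. Aldh1a1 stood at 21.3 CPM in mutant and 20.9 CPM in control cells of this class. Neither of these measured members was past 1.5-fold, where 10% of genes were. In microglia-like cells Rdh10 stood at 18.5 CPM (511 UMIs) in mutant and 19.9 CPM (564 UMIs) in control cells, a ratio of 0.934 (0.827 to 1.06). Aldh1a1 was the other measured member there, at a low 1.38 CPM in mutant and 4.54 CPM in control cells. It was past 1.5-fold lower, at a ratio of 0.304, where 6.68% of genes were past it and 4.91% were so lower. Of 9 measured astrocyte markers in microglia-like cells, 8 were also past 1.5-fold lower. The 10 astrocyte markers summed to 295 CPM in mutant and 436 CPM in control cells. The part of such background in this ratio was not tested. The microglial Rdh10 level was 11.97% of the ependymal-like level in the mutant and 13.9% in the control library, while the median for ependymal markers was 0.0785% and 0.103% in the mutant and control libraries, so microglial Rdh10 stood above what those markers give as background. Below the first rank, the Rdh10 intervals of neighbouring clusters overlapped in both libraries.

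Endothelial-like cells (185 mutant and 129 control cells) differed in Cyp26b1. It had 0 UMIs in mutant cells and 34 UMIs (61.6 CPM) in control cells, at least 14.5-fold lower in the mutant library when a floor of 3 counts per library is used. The control UMIs lay in 13 cells, 7 of them in a single one. Of these cells, 10 were among the 19 control cells with a UMI of Plvap, the gene of the diaphragms of fenestrated vessels, and 3 among the 110 without it. Only 9 of 185 mutant cells had a Plvap UMI, and none of these had Cyp26b1 (exact upper limit 33.6%). Plvap stood at 115 CPM in mutant and 621 CPM in control cells, so fewer cells of the Plvap kind and less Cyp26b1 within them cannot be told apart. Stra6 had 10 UMIs (14.2 CPM) in mutant and 29 UMIs (52.5 CPM) in control cells, a ratio of 0.270 (0.117 to 0.569), and was seen in 3 of 19 control cells with Plvap and 16 of 110 without. No member reached 50 UMIs in this class, where 12.1% of measured genes were past 1.5-fold. Of cells thinned to 2000 UMIs, 54 mutant and 27 control cells were too shallow to count.

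Aldh1a3, the third retinaldehyde dehydrogenase gene, was found in 1 unnamed cluster of 10 mutant cells with no control cell, led by Xirp2, Ptprq and Loxhd1. It had 28 UMIs there (196 CPM, 130 to 283) in 6 cells, beside 19 UMIs of Stra6 (133 CPM) and 8 of Cyp26b1. Every other cluster held at most 2 mutant and 4 control UMIs of Aldh1a3. BAM-like cells had 22 mutant and 42 control UMIs of Rdh10. The ratio of 1.497 (0.851 to 2.57) stayed just under 1.5, where 9.23% of genes were past it. Aldh1a1 had 0 mutant and 20 control UMIs in BAM-like cells. Its control level of 4.96 CPM was close to the 4.54 CPM of control microglia-like cells. Of 6 measured astrocyte markers in BAM-like cells, 5 were also past 1.5-fold lower. The 10 astrocyte markers summed to 129 CPM in mutant and 248 CPM in control BAM-like cells, and their part was not tested. In an unnamed cluster that mixed microglial markers with Prl and Snap25, Rbp4 had 1 UMI in 217 mutant and 45 UMIs in 149 control cells.

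Other retinoid genes were taken from lists written with earlier results of these data known. In cluster 1, 8.43% of all measured genes were past 1.5-fold. There, 0 of 10 measured retinol and retinal oxidoreductase genes and 0 of 9 measured receptor and cofactor genes were past it. Of 4 measured retinol binding and uptake genes, 1 was past it, which was Ttr at 3416 CPM in mutant and 1607 CPM in control cells. Ttr is also a choroid plexus marker, and those markers summed to 2055 CPM in mutant and 1880 CPM in control microglia-like cells. The part of such background in the Ttr of cluster 1 was not tested. Of 9 measured retinoic acid responsive genes in cluster 1, 1 was past 1.5-fold lower. That gene was Meis2, a homeobox gene, at 15.3 CPM in mutant and 31.4 CPM in control cells. The responsive genes Rarb, a retinoic acid receptor, and Dhrs3, a retinaldehyde reductase, were not past it, at 97.6 and 159 CPM in mutant and 113 and 202 CPM in control cells. Choroid plexus epithelium-like cells held Rdh5, a retinol dehydrogenase gene, at 384 CPM in mutant and 391 CPM in control cells, and Ttr at 289974 and 296538 CPM in mutant and control cells. In cluster 18, where 19.1% of all genes were past 1.5-fold, 2 of 8 measured responsive genes were past it higher and 2 lower. There 1 of 2 binding and uptake genes was lower, and 0 of 4 oxidoreductase and 0 of 4 receptor and cofactor genes were past it. In its cells with Slc6a13, where 28.5% of genes were past it, 1 of 3 measured responsive genes was higher and 2 were lower. In cluster 13, 8.68% of all measured genes were past 1.5-fold. There, 0 of 4 binding and uptake, 0 of 10 oxidoreductase, 0 of 9 receptor and cofactor and 0 of 9 responsive genes measured were past it. In cluster 14, where 15.1% of all genes were past it, 3 of 9 responsive genes were so lower. These were Rarres2 at a ratio of 0.647, Tshz1 at 0.597 and Cd38 at 0.574. Of 4 measured binding and uptake genes there, 2 were past 1.5-fold higher, while 0 of 10 oxidoreductase and 0 of 7 receptor and cofactor genes were past it. In endothelial-like cells, where 12.1% of all measured genes were past it, 3 of 7 measured responsive genes were: Tgfb2 was higher, at 258 CPM in mutant and 136 CPM in control cells, and Tgm2 and Cd38 were lower, at ratios of 0.461 and 0.400. Also in endothelial-like cells, 2 of 4 measured binding and uptake genes and 2 of 4 oxidoreductase genes were past 1.5-fold lower. None of the 5 receptor and cofactor genes measured there was past it. CPM values of different genes are set side by side here with no correction for gene length, and any effect of gene length on them was not tested.

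Genes whose level followed a member most closely were ranked by Pearson's r of log2(CPM + 1) over 23 clusters, both libraries together, as a description with shared libraries and depth. Crabp2 was followed by Asgr1 (r = 0.971), Rbp4 (0.962) and Moxd1 (0.961), Aldh1a2 by Slc22a6 (0.946) and Inmt (0.936), and Aldh1a1 by Fam20a (0.953). Stra6 was followed by Sema3f (0.941), Rdh10 by Casc1 (0.850) and Cyp26b1 by Prkd1 (0.833). Aldh1a3 was too rare to rank.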

How the data were processed

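Single cells sorted from adult mouse brain were profiled with the 10x Chromium 3′ v3.1 assay, per the labels' protocols, in 1 mutant and 1 control library. Each deposited matrix gives unnormalized UMI counts for genes by barcodes, written by Cell Ranger 7.1.0 per the file headers, and the submitters' processing notes name GRCm38.p6 and mm10. The members and lists were chosen with earlier results of these data known.

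Barcodes under 500 genes or over 10% mitochondrial UMIs were dropped, and Scrublet marked 2.47% of mutant and 2.15% of control barcodes as doublets, which were removed. Of the barcodes, 17 occurred in both libraries and 9 of these were kept in both. Counts were scaled to 10000 per cell, and 2000 variable genes without the retinoid genes, 30 components, 15 neighbours and Leiden resolution 1 gave 24 clusters (scanpy 1.11.5, python 3.11.15). Fibroblast and arachnoid barrier were not treated as competing classes when clusters were named. Without that exemption cluster 1, with 5 fibroblast and 3 arachnoid barrier markers, would have stayed unnamed. A cluster was named when at least 5 markers of a class were seen in 25% of its cells and at 25% of the highest cluster's CPM, with no competing class. This rule was revised once, after cluster sizes and leading genes had been seen: a first form with a minimum of 3 markers left the ependymal and oligodendrocyte clusters unnamed and named a pair of clusters now unnamed, with the fibroblast, choroid plexus, endothelial, BAM and microglia names the same under both.

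UMIs were summed per library and cluster. CPM have exact Poisson and ratios exact conditional 95% intervals, shares have Clopper-Pearson intervals, and PCR or animal variation is in none of them. With 1 library per genotype no test was made: a gene was measured with at least 50 UMIs over both libraries and counted past 1.5-fold by size alone. Named genes were the 8 members, and other pathway genes by list. Alternatives covered the filters, the clustering, the UMI minimum and the fold. The fold rule was tested on simulated data. Promoter sequences are from RefSeq (GRCm38.p6).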

Additional observations from a re-analysis of the deposited data

Results flagged for a closer look

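Aldh1a1 and Rdh10 had ratios of mutant over control CPM that lay on opposite sides of 1 in different clusters, each past 1.5-fold; the difference between clusters was not tested. For Aldh1a1 the ratio was 1.57 in astrocyte-like cluster 23, against 0.596 in astrocyte-like cluster 14 and 0.563 in fibroblast-like cluster 18. In oligodendrocyte-like cluster 16 it was 0.518, from 8 mutant and 45 control UMIs, with an interval of 0.211 to 1.11 that spans 1. It was 0.322 in choroid plexus cluster 4 and 0.313 in microglia-like cluster 2. The levels behind the last pair were low, at 1.08 CPM in mutant and 3.34 CPM in control cells of cluster 4 and at 1.60 CPM in mutant and 5.12 CPM in control cells of cluster 2, and are read as background. For Rdh10 the ratio was 1.79 in choroid plexus cluster 0 and 1.73 in the unnamed cluster 6, against 0.649 (0.362 to 1.16) in cluster 18. The cluster 18 value became 1.12 in cells with Slc6a13 and 1.04 without the mitochondrial cap. Of all genes measured, 17.1% were past 1.5-fold in cluster 16 (11.8% lower), 5.12% in cluster 2 (3.52% lower) and 14.4% in cluster 6 (6.04% higher). Shares for the other clusters are given above.

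Barcodes left out by the filters, which enter no comparison, held Stra6 at 28.6 CPM in the mutant library and 18.8 CPM in the control library.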

How the results depend on the processing

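No paired analysis was possible because each genotype had 1 library. Over 73 results, 549 alternatives were computed: 472 moved less than counting error or 1.5-fold, 70 moved more, and 7 turned a direction. A turned direction was counted only for ratios past 1.5-fold at the main settings. Of 298 alternatives to a ratio, 276 stayed on the same side of 1. Without the mitochondrial cap, the Rbp4 ratio became 0.686 in cluster 1 and 0.730 in all fibroblast-like cells, and that of Rdh10 in cluster 18 became 1.04. With each library clustered alone, the fibroblast-like class had 56 mutant and 179 control cells, since the mutant counterpart of cluster 1 was then unnamed. Its ratios became 2.06 for Aldh1a1, 2.13 for Aldh1a2 and 2.23 for Rdh10, and 2748 genes were past 1.5-fold in place of 1089. The Aldh1a1 ratio in cluster 13 became 1.11 with each library clustered alone, and 0.971 without doublet removal. The 1.11 sets 163 mutant cells against the best-matching control cluster of 280 cells. A further unnamed cluster of 156 control cells, with Kcnd2 and Aldh1a1 among its 10 leading genes, was not in it. Alternatives chosen after seeing the data were the Slc6a13 gate (Aldh1a2 0.715 and Rdh10 1.12 in cluster 18) and leaving out the top cell (Rbp4 2.67 in cluster 1). Counts of genes past the fold followed the minimum: 5782 fibroblast-like, 5854 astrocyte-like and 4516 choroid plexus genes, and 24 members over 5 classes, at 1 UMI, and 277, 202, 120 and 3 at 200 UMIs, in place of 1089, 908, 549 and 6. At 2-fold they were 345, 177, 134 and 3, with 1 member in place of 4 in fibroblast-like cells. The causes were not tested beyond this. Clusters 18 and 23 and the endothelial-like class are limited by their few cells.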
